A study of Mus musculus with 2 samples.

Results

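Guides that end in GG are single guide RNAs (sgRNAs) whose bases 19 and 20, the last bases before the PAM, are both G. They were picked from the guide sequences alone, leaving out any guide with a run of 4 or more G. No read count enters this rule, but it was chosen with earlier results of these data known. Of the 79633 guides of the library 9316 met the rule, which is 11.7%. The screen in which they were read was a pooled CRISPR knockout in immortalised mouse macrophages, with 2 libraries of guide barcodes, 1 for each group. There is thus no replicate spread, no p-value is given for any difference, and intervals over guides or reads do not stand in for replicates.

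All cells were bone marrow derived macrophages from Cas9 knock-in mice (R26-Cas9-KI), immortalised with J2 retrovirus. They expressed the Tet3G transactivator and a doxycycline-inducible fragment of gasdermin D (GSDMD) fused to tagBFP, and they had been transduced with the lentiviral Brie library, which carries a blasticidin marker. The input group received no doxycycline. The survivor group received doxycycline at 0.5 μg/ml for 16 h and was sorted for cells that were BFP positive and propidium iodide negative, so it holds cells that made the fragment and still had closed membranes. The population is a transformed line, and every guide reading reports DNA copies of the guide, not loss of its target protein. The input library held 86266754 reads and the survivor library 16269091 reads. Members accounted for 11.8% of all reads in the input and for 12.1% in the survivors, with medians of 955.5 and 130.5 reads per member against 939 and 126 over all guides.

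Cas9 opens DNA beside a short motif called the PAM, NGG for the enzyme used with this kind of library, and the guide then pairs with the target starting from its PAM-proximal end, the seed. A guide ending in GG therefore has a target in which a G pair lies 1 base before the G pair of the PAM. In nematodes, guides of this kind are known for efficient cutting, and G next to the PAM is favoured by the scores of predicted activity with which libraries such as Brie were chosen. GSDMD is the pore protein of pyroptosis, an inflammatory form of cell death: its N-terminal fragment inserts into the plasma membrane and breaks it open. In such a screen a guide that cuts well in a gene needed for growth is lost before induction, and a guide that cuts well in a gene needed for pore formation gains among the survivors.

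The following 4 members, 1 for each first base, lie nearest to the median member in both input reads and change among the survivors, and show what an ordinary member looks like. The capitals mark bases 19 and 20.
First base A: agaactccgatgatcgctGG
First base C: ccaggttgtgtggtactcGG
First base G: ggtcatggtcaggataatGG
First base T: tatcaaccatgaatggctGG
The first had 976 input and 142 survivor reads, the second 982 and 140, the third 982 and 138, and the fourth 951 and 137. The survivor library held fewer reads in all, and these guides kept close to their place within it: their log2 ratios, defined with the survivor results, lie between 0.03 and 0.08.

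GG was the fourth most common of the 16 possible end pairs. It stood at the end of 12.2% of all guides, counting those with longer G runs, after TG at 15.8%, CG at 13.9% and AG at 13.2%. TT was the rarest at 0.550%. The members were otherwise built much like other guides, with a median of 9 G or C in positions 1 to 18, as in the guides that end in neither GG nor TT. The largest departures lay just before the G pair. T stood at position 18 in 27.6% of members and 14.6% of those guides, C in 28.9% and 38%, G in 17.1% and 23%, and A in 26.3% and 24.4%. The lower share of G is partly built in: the rule leaves out guides with G at both 17 and 18, while those other guides keep their G runs. A CpG was present in 66.2% of members and in 59.4% of those other guides. The members were then set beside guides ending in neither GG nor TT, with the same first base and the same number of G and C in positions 1 to 18, weighted so that each such class counted as it did among the members. These 69476 guides are called the comparison guides.

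Members were not poorly represented before induction. Fewer than 200 input reads were found for 909 members, or 9.76% (95% exact Clopper-Pearson interval over guides 9.16 to 10.4%), where 9.89% of all guides lay under that limit and the comparison guides gave 10.0%. The comparison value lay inside the members' interval. The shares with no input read at all were 1.53% of members (1.30 to 1.81%) and 1.59% of comparison guides. Under 30 reads were 3.41% of members (3.05 to 3.80%) and 3.61% of comparison guides, and under the 500-read limit were 24.4% (23.5 to 25.3%) and 24.9%. With this matching, no excess of nearly lost guides was detectable at any of these limits among guides with a GG end. In the 32 classes of first base and G plus C count that held at least 50 members, the share under 200 reads was lower in members in 17 and higher in 15.

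The median member had slightly more input reads with this matching. The members' median was 955.5 input reads (95% binomial interval of the median over guides 938 to 972), beside 929 in comparison guides. The 5th percentile was 65 input reads in members and 62 in comparison guides, the 25th was 511 and 502, and the 95th was 2605 and 2566. With base 18 matched as well the difference in the median was 13.5 reads (-5 to 29), a range that holds 0. The range given with a difference from comparison guides is the members' interval less the comparison value. It leaves out the spread of the comparison guides. Guides were also matched on G plus C over all 20 positions, which gives the comparison guides more G and C in positions 1 to 18 than the members have. The difference in the median was then -41.5 reads (-59 to -25). The members' share under 200 reads was 0.73 percentage points higher (0.13 to 1.35). Neither range holds 0, and both differences were opposite in direction to those with the main matching.

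By first base, the members starting with A had a median of 948 input reads against 895 in their comparison guides, those with C 1045.5 against 1019, those with G 851 against 854, and those with T 991 against 978. The share under 200 reads ran from 8.12% (7.04 to 9.32%) for members starting with C to 11.03% (9.71 to 12.5%) for those starting with T. In each of the 4 groups the comparison share lay inside the members' interval. G plus C content moved these shares more than the GG end did: 11.3% of members with up to 8 G or C in positions 1 to 18 were under 200 reads, and 7.84% of those with 11 or more, against 12.3% and 7.18% in their comparison guides.

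Survivor reads were compared with input reads guide by guide, scaled to a library total of 1000000 reads (RPM) with 1 RPM added, on the log2 scale, relative to the median of all 76767 guides with at least 30 input reads. This log2 ratio understates the change of guides with few reads. Of the members, 8998 had at least 30 input reads and 318 did not. The median member had a log2 ratio of 0.05 (95% binomial interval over guides 0.01 to 0.08) and the median comparison guide one of -0.01. The means were -0.05 (SD over guides 1.25, n = 8998 guides) and -0.11 (SD 1.26), a difference of 0.05 that is small beside the spread of single guides. With G plus C of all 20 positions matched, the difference in medians was 0.02 (-0.02 to 0.05) in place of 0.07 (0.02 to 0.09). Summed over all members, the survivors gave 19.4 reads per 100 input reads, and the comparison guides gave 18.7. The ratio was higher in members than in their comparison guides in 19 of 32 classes and lower in 13.

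Members were found among the survivors about as often as other guides. With at least 30 input reads, 884 members had no survivor read, or 9.82% (9.22 to 10.5%), beside 10.3% of all guides and 10.4% of comparison guides. At least 4-fold above the median guide were 290 members, or 3.22% (2.87 to 3.61%), where 3.04% of all guides passed this limit and 3.0% of comparison guides. At least 4-fold below it were 708 members, or 7.87% (7.32 to 8.44%), where 8.17% of all guides did and 8.25% of comparison guides. Of the 708, 327 had no survivor read. Each comparison share lay inside the members' interval, that of absent guides only just. It lay outside, with members absent less often, from 1 input read (11.4% against 12.1%) and from 100 input reads (7.89% against 8.62%). It lay barely outside with the first 2 bases matched (9.82% against 10.5%) and without certain short motifs (9.79% against 10.4%). In the other alternatives it lay inside, as from 1000 input reads (0.860% against 0.907%). With G plus C of all 20 positions matched it also lay inside, with members absent more often (9.82% against 9.34%). These counts of members past 4-fold depend on the scaling. Without centring, edgeR's TMM factors put the median of all guides at -0.23. They gave 170 members up and 980 down, where 1361 and 8899 of all guides were. DESeq2's size factors, with a median of -0.18, gave 191 and 943 members, where 1532 and 8567 of all guides were. Members were 11.7% of all guides.

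The small difference ran through nearly the whole range of input reads. In 10 equal bins of input reads, the mean log2 ratio of members lay above that of comparison guides of the same bin in 9, by up to 0.09, and 0.03 below it in the bin whose median guide had 885 input reads. The share of absent members went from 50.5% (47.3 to 53.8%) in the lowest bin, whose median was 160 input reads, to 0.447% (0.122 to 1.14%) in the next to highest, whose median was 1880. The comparison shares in those bins were 53.3% and 0.280%, and in all 10 bins the comparison share lay inside the members' interval.

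Among the 16 end pairs, each weighted to the members' first bases and G plus C counts, GG had the highest mean log2 ratio, -0.05, followed by CT at -0.06 and GT at -0.07. TT was lowest at -0.23 and TA next at -0.17. By the median, CT at 0.07 and GT at 0.06 came before GG at 0.05, so the top places are not separated. GG held the twelfth place from the top in the share under 200 input reads. The extremes of that order were AC, with 13.1% under 200 reads, and AT, with 8.40%. Guides with a single G lay close to guides with none. Those with G at position 19 only had a weighted mean log2 ratio of -0.10, those with G at 20 only one of -0.12, and those with G at neither, TT left out, one of -0.10. Their shares under 200 reads were 10.8%, 9.69% and 10.1%, beside 9.76% for G at both.

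A G pair was also followed along the guide, each time against guides without G at both of those positions. Guides with a run of 4 G, and comparison guides with 2 T at the place, were left out. The guides compared had the same G plus C count elsewhere and, except at positions 1 and 2, the same first base. At positions 1 and 2 the first base was not matched, only G plus C of the other positions. At positions 19 and 20 the mean log2 ratio was 0.05 above those guides, the sixth highest of 19 places. The highest was 0.16 at positions 4 and 5 and the value at positions 1 and 2, which holds the difference between first bases as well, was -0.29. In the share under 200 input reads the end was eighth of 19, 0.246 percentage points below its own comparison. The value at the GG end thus lay within the range of G pairs at other places in both measures.

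The members were not alike, and base 18 divided them. Relative to comparison guides, the mean log2 ratio was 0.01 higher for the 2361 kept members ending in AGG, 0.03 lower for 2609 ending in CGG, 0.08 higher for 2492 ending in TGG and 0.21 higher for 1536 ending in GGG. The GGG members had a median of 0.28 (0.20 to 0.36), where their comparison guides had 0.01. The TGG members had a median of 0.08 (0.01 to 0.14), where their comparison guides had -0.05, or 0.01 with base 18 matched as well. Against guides with the same base 18 that do not end in GG or TT, the AGG, CGG and TGG differences were -0.01, -0.02 and 0.03, and that of GGG was 0.23. These splits were looked at after the values of the members were known and carry no test.

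Most of the members' overall difference was gone when the GGG members were left out. The remaining 7462 kept members had a median log2 ratio of 0.00 (-0.04 to 0.05), beside -0.02 in their comparison guides, and 18.9 survivor reads per 100 input reads, beside 18.7. The 1597 GGG members gave 22.02 survivor reads per 100 input reads, where their comparison guides gave 18.9. The same direction was seen for each first base: the difference of means was 0.18 for A, 0.15 for C, 0.27 for G and 0.22 for T. It was seen in 10 of 10 bins of input reads, from 0.05 to 0.32. It was also seen among recovered guides with no pseudocount, where the median of GGG members was 0.25 (0.18 to 0.32) and that of comparison guides 0.01. These splits reuse the same guides and libraries and are not independent of the values that singled out GGG.

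In the input the GGG members leaned the other way with the main matching. Under 200 input reads were 11.2% (9.70 to 12.9%), and their comparison guides, at 9.47%, lay just outside that interval. TGG members were at the other end, with 7.93% (6.91 to 9.04%) beside 10.8% and a median of 1048.5 input reads beside 876. CGG members had a lower median than their comparison guides, 904.5 against 991, with shares under 200 reads of 9.50% and 9.13%. Against guides with the same base 18, the comparison shares were 9.77% for GGG members and 9.61% for TGG members. The GGG comparison share then lay inside the members' interval (9.65 to 12.8%), and that of TGG stayed outside. Among survivors, 9.05% of GGG members with at least 30 input reads were absent (7.66 to 10.6%), beside 9.77%. At least 4-fold above the median guide were 4.56% of GGG members (3.57 to 5.72%), beside 3.0% of their comparison guides and 3.04% of all guides, and 5.66% were at least 4-fold below, beside 8.01%.

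Runs of 3 G were followed along the guide in the same way. The difference in mean log2 ratio from guides without the run, matched on first base and the remaining G plus C, was 0.22 at positions 18 to 20, the highest of 18 places. It was -0.30 at positions 1 to 3, where the first base was not matched, 0.13 at positions 4 to 6, 0.11 at 7 to 9, and between -0.12 and 0.05 at every place from positions 8 to 10 through 17 to 19. By the median the end stood out less, with differences of 0.29 at positions 18 to 20, 0.24 at 4 to 6 and 0.17 at 3 to 5. Among the 51 endings of 3 bases with at least 200 guides, weighted to the members, GGG had the highest mean at 0.10, followed by CCT at 0.04 and ACT at 0.00, while the endings TGG, AGG and CGG were at places 6, 26 and 30. Guides ending in GG that were left out for a run of 4 or more G, 383 in number, had a median log2 ratio of 0.06 (-0.08 to 0.20) beside 0.02, and 8.88% of them (6.23 to 12.2%) were under 200 input reads beside 8.70%.

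The GGG members were also split by the bases just before the run. With A at position 17 the median log2 ratio was 0.40 (0.32 to 0.53, n = 543 guides), beside 0.01 in comparison guides. With C it was 0.24 (0.06 to 0.35, n = 508 guides) beside 0.06, and with T 0.14 (0.00 to 0.32, n = 485 guides) beside -0.03. The intervals of A and C overlapped, as did those of C and T. Without the guides ending in GAGGG the median with A was 0.33 (0.17 to 0.42, n = 449 guides) beside 0.01, and its interval overlapped those of C and T. Of 455 endings of 5 bases carried by at least 50 kept guides, GAGGG was first both in mean log2 ratio, 0.87 above the mean of its first base and G plus C class, and in the share of guides at least 4-fold up. CGAGT was second by the mean, at 0.49, and the members' ending next in the order was CAGGG, at place 13 with 0.28. TAGGG followed at 0.23 and AAGGG at 0.21. The ending was singled out after these values were seen.

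The 6 GAGGG members with the most input reads are shown because the ending had the highest mean of those compared. Their many reads leave little error from counting reads, which does not include the sampling of cells. The capitals mark the shared ending, positions 16 to 20.
GAGGG guide 1: tctgctcgtaatccaGAGGG
GAGGG guide 2: cattgtttatctggaGAGGG
GAGGG guide 3: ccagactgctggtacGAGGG
GAGGG guide 4: gatcctgagctgtatGAGGG
GAGGG guide 5: ggtggaacagcatctGAGGG
GAGGG guide 6: actctaccccactccGAGGG
Guide 1 had 2881 input and 1569 survivor reads, guide 2 had 2718 and 877, and guide 3 had 2665 and 1093. Guide 4 had 2648 and 597, guide 5 had 2638 and 949, and guide 6 had 2542 and 1444. All 6 lay above the median guide, from a log2 ratio of 0.67 for guide 4 to 1.98 for guide 6. Apart from the ending the 6 sequences start differently, and of the 99 guides with this ending no pair overlapped by 14 or more bases.

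Across the 99 members ending in GAGGG, input reads ran from 0 over a median of 880 to 2881, and survivor reads from 0 over a median of 262 to 1580. With at least 30 input reads there were 94, and 70 of them had a log2 ratio above 0. Their median was 0.97 (0.70 to 1.20), with a mean of 0.82 (SD over guides 1.29, n = 94 guides), while their comparison guides had a median of 0.04. At least 4-fold up were 21, or 22.3% (14.4 to 32.1%), where 3.04% of all guides passed that limit and 3.23% of the comparison guides. At least 4-fold down were 3, or 3.19%, where 8.17% of all guides were. Summed, they gave 37.3 survivor reads per 100 input reads, beside 19.4 in comparison guides. Single guides varied widely, from -3.30 to 3.14, so the ending does not fix the value of a guide.

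Split by first base the GAGGG guides were few, with medians of 0.75 for A (-0.37 to 1.98, 19 guides), 1.01 for C (-0.14 to 1.58, 27 guides), 0.67 for G (-0.03 to 1.33, 21 guides) and 1.20 for T (0.61 to 2.08, 27 guides). All 4 medians lay above those of their comparison guides. The intervals for G and T lay wholly above their comparison medians, -0.28 and 0.23, and those for A and C did not. Only the interval for T lay wholly above 0. With under 1000 input reads the mean of GAGGG guides was 0.92 above comparison guides of that range, and from 1000 input reads 0.86. The ending was picked as the highest of 455 by this log2 ratio. These splits reuse the values that picked it, and the intervals do not allow for the choice. In the input the GAGGG guides were ordinary, with 10.1% under 200 reads (4.95 to 17.8%) beside 9.56%. Guides ending in GAGG and then A, C or T had a median of 0.07 (-0.41 to 0.33, n = 106 guides), and 1.89% of them were at least 4-fold up. With GAGGG starting at any of the first 15 positions, 17 of 577 guides were at least 4-fold up, or 2.95% (1.73 to 4.68%), although at positions 3 to 7 the 34 guides had a mean 0.70 above their class. The other GGG members, without GAGGG, had a median of 0.25 (0.13 to 0.32), and 3.40% of them (2.52 to 4.47%) were at least 4-fold up.

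The members at either end of the log2 ratio, among those with at least 1000 input reads, show how far a guide with many input reads could lie from the median. The capitals again mark bases 19 and 20.
High 1: cttccaggacgactacatGG
High 2: tgcagttgtgaatccaagGG
High 3: ggtgcagtccgtttagtcGG
Low 1: agaagaaaatcgcggcccGG
Low 2: ttcaacactagagctgccGG
Low 3: ggctgcacggagtacctcGG
High 1 had 1766 input and 2344 survivor reads and a log2 ratio of 3.17. High 2 had 1066 and 1412 reads and a ratio of 3.13, and high 3 had 1483 and 1878 reads and a ratio of 3.10. Without a pseudocount their ratios were 3.23 (95% exact interval from the reads 3.14 to 3.32), 3.23 (3.11 to 3.35) and 3.17 (3.07 to 3.27). Low 1 had 2324 input reads and 3 survivor reads, low 2 had 1945 and 0, and low 3 had 2106 and 2, with log2 ratios of -4.14, -4.14 and -4.08. The upper bounds of their ratios without a pseudocount were -5.22, -6.22 and -5.36. These intervals and bounds cover the counting of reads only, not the sampling of cells. No gene was assigned to these 6 guides, and none of the 6 ends in GAGGG. The 3 members with the most input reads were gaagtcacagcacatgacGG with 9315 input and 753 survivor reads, atagagtcattgtccataGG with 8822 and 1921, and gtgtaatagctcctgcatGG with 7776 and 1299. Their log2 ratios were -0.79, 0.62 and 0.25, on either side of the median guide.

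Guides that overlap a member gave a comparison at nearly the same target site. A total of 202 members, or 2.17%, overlapped another guide by at least 14 bases, beside 1.88% of guides ending in neither GG nor TT. In 209 pairs only 1 of the guides was a member. The most frequent arrangement, 81 pairs, had the other guide 3 bases upstream on the same strand, where the member's own bases 19 and 20 serve as the G pair of the other guide's PAM. Over the 209 pairs the member had more input reads in 99 and fewer in 106, with a median log2 difference in input of -0.03 (95% binomial interval over pairs -0.34 to 0.12). Under 200 input reads were both guides in 32 pairs, only the member in 21 and only the other guide in 17. Counted once per pair, these were 53 members and 49 other guides of 209, a larger share than the 9.89% of all guides. The paired guides are thus not typical of the library. In 174 pairs each guide reached 30 input reads, and there the member had the higher log2 ratio in 80 and the lower in 94, with a median difference of -0.15 (-0.60 to 0.19). In these pairs no difference between members and their overlapping guides was detectable in either measure.

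The pairs with the largest difference in input reads in each direction show both outcomes at nearly 1 site. The members carry GG in capitals.
Pair 1, member: tatggctgctgtggctgtGG
Pair 1, other guide: ggctatggctgctgtggctg
Pair 2, member: tctggacgcggtaagcagGG
Pair 2, other guide: acgcggtaagcagggcggca
Pair 3, member: gcactaggtgaacgtattGG
Pair 3, other guide: atgccagcactaggtgaacg
Pair 4, member: caaccagggcgctggcaaGG
Pair 4, other guide: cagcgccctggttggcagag
In pair 1 the guides share 17 bases, and the member had 241 input reads where the other guide had 3810. In pair 2 they share 15 bases, with 38 reads for the member and 1222 for the other guide. In pairs 3 and 4 the member was the higher guide, with 1058 against 46 reads and 1019 against 84, sharing 14 bases on the same strand in pair 3 and on opposite strands in pair 4. Survivor reads of the members were 1, 21, 16 and 39 in that order, and those of the other guides 351, 40, 0 and 0.

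A small part of the members could be placed in the genome, by an exact match to the 300 bases around gene starts in RefSeq sequence (GRCm38.p6). Of 621 guides with a single place there, 78 were members. The 3 bases after the guide lay inside the window for 74 of these, and all 74 read NGG, which places the G pair of a member beside a PAM as described above. Of the 78, 75 lay within 1 protein-coding gene by the RefSeq gene bounds, and exon and UTR bounds were not analysed here. Their median was 981 input reads, and 7 of the 78 were under 200, where 9.89% of all guides were. The 77 with at least 30 input reads had a median log2 ratio of -0.03 (-0.25 to 0.29). The pair with the highest and the pair with the lowest ratio among those within 1 gene were as follows, chosen after their values were seen.
Gng5: cgtcgccgccatgaagaaGG
Ckmt1: ctcaggctctaatacctcGG
Clca4a: agagtctatgcatgccaaGG
Smim20: gaagtagatgggatagaaGG
The Gng5 guide lies at chr3:146499957-146499976 on the plus strand, in the gene of a G protein gamma subunit, and had 698 input and 760 survivor reads, a log2 ratio of 2.81. The Ckmt1 guide lies at chr2:121358997-121359016 on the minus strand, in the gene of a mitochondrial creatine kinase, and had 281 and 318 reads, a ratio of 2.69. The Clca4a guide at chr3:144968362-144968381 and the Smim20 guide at chr5:53267311-53267330, both on the minus strand, had 971 and 944 input reads and no survivor reads. By the counting of reads alone, a survivor count of 0 allows up to 0.184 RPM. Each is 1 guide of a gene, and no value for a gene is drawn from it.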

How the data were processed

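Guide abundance was measured in 1 input and 1 survivor library. The authors deposited raw read counts, whole numbers for each barcode of 20 bases, per the file headers. The tool that counted barcodes and what the headers mean by combined were not given in the sources used here. Counts were joined by barcode and scaled to 1000000 reads. Log2 ratios used a pseudocount of 1 RPM and guides with at least 30 input reads, centred on their median, which was -0.42 before. Comparison guides were weighted by class of first base and G plus C count. Intervals are exact Clopper-Pearson for shares, order-statistic binomial for medians and conditional binomial for single guides, all at 95%. They cover the counting of reads or spread over guides only, not the sampling of cells. For a difference from comparison guides, the members' interval was shifted by the comparison value, which was held fixed. PCR copies were not told apart by molecular identifiers. Overlaps were end to end, on either strand. The members, splits and alternatives were chosen with earlier results of these data known. Guides were named by a rule: nearest the medians for each first base, the 3 highest and 3 lowest ratios from 1000 input reads, the 3 with most input reads, and the 2 overlapping pairs with the largest input difference in each direction; the GAGGG guides and the placed guides were added afterwards. The calculations were tested on simulated data with planted differences, which checks direction and rough size. Differences as small as those found for all members were not tested in this way. Python 3.11.15, numpy 2.4.6, pandas 2.3.3 and scipy 1.17.1 were used, and edgeR 4.0.16 and DESeq2 1.42.0 (in R 4.3.3) for scaling factors only.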

Additional observations from a re-analysis of the deposited data

Results flagged for a closer look

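No input read was found for 143 members, yet 3 of them were read among the survivors, and 2 were above the 3 reads that a count of 0 allows. The higher of them had 168 survivor reads. They lie outside the log2 ratios, which need at least 30 input reads, and over the whole library 14 of 1272 guides with 0 input reads were of this kind.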

How the results depend on the processing

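No paired analysis was possible because neither group has a replicate, which also means that none could be left out in turn. Of 87 alternatives, 67 were planned and 20 were added after seeing the data; 71 stayed within the interval of the value they were set against or, for counts, within 1.5 times. Matching on G plus C of all 20 positions turned the members' difference in median input reads from 26.5 to -41.5, and moved the difference in the share under 200 input reads from -0.259 to 0.726 percentage points and in the share without survivor reads from -0.623 to 0.484; it gives comparison guides more G and C in positions 1 to 18. The difference in summed survivor over input reads, 0.0488 on the log2 scale with a very narrow counting interval, was 0.0454 without matching, 0.0422 with base 18 matched, 0.0269 with G plus C of all positions matched and 0.0117 without members ending in GGG. The difference in median log2 ratio, 0.0662, was 0.0220 without these members, 0.0236 with G plus C of all positions matched and 0.0364 with a pseudocount of 5 RPM. The difference in median input reads was 13.5 with base 18 matched. Members at least 4-fold up, 290 of the 2335 guides up in all, numbered 57 of 437 with a pseudocount of 5 RPM. They numbered 48 of 363 from 1000 input reads, 170 of 1361 with TMM and 191 of 1532 with DESeq2 size factors. Members at least 4-fold down, 708 of the 6272 guides down in all, numbered 1598 of 14237 with a pseudocount of 0.1 RPM. They numbered 17 of 156 with 5 RPM and 326 of 2795 from 1000 input reads. Members were 11.7% of all guides. The GGG members' difference in median, 0.27, was 0.15 with a pseudocount of 5 RPM, which pulls ratios toward 0, and that of GAGGG members, 0.93, lay between 0.67 and 0.99 over its 8 alternatives. With 1 library for each group, the spread between replicate libraries is unknown, and guides with few input reads are the least well measured.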
